A study of Mus musculus with 10 samples.

Results

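The 39 genes described here encode enzymes and membrane proteins of the lysosome, the acidic compartment in which cells break down proteins, glycans and lipids. They were chosen by name from the 24015 genes of the count table: 8 lysosomal membrane proteins, 10 cathepsins and other proteases, 12 glycan-degrading hydrolases, 6 lipid hydrolases, activators and other luminal proteins, and 3 genes of acidification and transcriptional control. The rule uses names and no measured value, although the list was drawn up with earlier results of these data known. All 39 passed the filter on low counts. Ctsk had at most 8 reads in each DMSO, MM-401 and iBET library and 44 to 161 with EPZ5676 and MI-2-2. It therefore passed the filter only through the groups where it was high, and its calls are not independent of that filter. Atp6v0d2, with 2 reads in each DMSO library, passed only through inhibitor libraries, those of MM-401 among them, where its level was higher. Its calls against DMSO are likewise not independent of the filter. RNA-seq was done on MAF9 cells, bone marrow cells of C57BL/6 mice that were transduced with the leukemia fusion gene MLL-AF9 and grown in medium with 15% serum and 10 ng/ml interleukin-3. Every group therefore carries the fusion gene and the cytokine. The cells were exposed for 4 days to MM-401 (labelled MM401), which blocks the interaction of MLL1 with WDR5, to EPZ5676 (labelled EPZ), an inhibitor of the H3K79 methyltransferase DOT1L, to MI-2-2 (labelled MI), which blocks the binding of MENIN, to iBET, an inhibitor of BET bromodomain proteins, or to DMSO, the vehicle. The treatment protocol in the labels writes the name MI-2, and the publication MI-2-2, for the MENIN inhibitor. Each inhibitor was used at its own IC50 dose, and each of the 5 groups had 2 libraries. The sources used here give neither age nor sex of the source animals.

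Lysosomal enzymes are made as precursors in the endoplasmic reticulum, tagged with mannose 6-phosphate and carried to an organelle whose proton pump keeps the lumen acidic. Cathepsins cut proteins, exoglycosidases and sulfatases remove sugars and sulfate groups from glycan chains, and lipases with their activator proteins degrade membrane lipids. Myeloid cells, macrophages above all, are rich in lysosomes because they digest what they engulf. Many lysosomal genes carry the CLEAR element in their promoter, a sequence built around an E-box, to which the transcription factor TFEB and its relatives bind.

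Library totals lay between 20394762 and 29473127 counted reads. Levels are given as TMM CPM, reads per 1e6 counted reads after scaling with edgeR's TMM factors. DMSO replicate 2 stood apart from the other 9 libraries. It had Xist at 4.65 TMM CPM against 1026 to 2817 elsewhere, and 3630 reads on 4 Y-linked genes against 0 to 2. Its log2 CPM correlated with those of DMSO replicate 1 at r = 0.942 across genes, against 0.983 to 0.992 between the libraries of the other groups. It also held Nkg7 at 65.7 and Col6a3 at 244 TMM CPM, against at most 4.75 and 4.71 elsewhere. Comparisons with DMSO are therefore given with and without that library. Without it, DMSO replicate 1 is the only control library. Of the 39 genes, 13 (33.3%) differed by more than 1.5-fold between the DMSO libraries, 10 of them being higher in replicate 1, against 38.1% of all genes tested. Of the markers of blasts, Hoxa9 and Myb were detected at 227 to 953 TMM CPM in every library, whereas Flt3 and Cd34 were at 3.21 TMM CPM or less. The levels were not steady. Myb was at 687 and 953 in DMSO and at 227 to 274 with EPZ5676 and MI-2-2. Meis1 was at 36.4 and 89.9 in DMSO and at 0.650 to 1.79 with those inhibitors. Counts for the whole list are given below.

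The lysosome genes took 0.933 ± 0.104% of counted reads in DMSO (mean ± SD, n = 2 libraries here and below), 1.13 ± 0.0293% with MM-401, 1.21 ± 0.190% with EPZ5676, 1.55 ± 0.380% with MI-2-2 and 1.73 ± 0.161% under iBET. The 2 DMSO libraries, at 1.01% and 0.860%, were the lowest of the 10, and the 2 iBET libraries and MI-2-2 replicate 2 were the highest. Ctsd, the main aspartic protease, alone made up 10.7 to 18.8% of these reads, and Psap, the precursor of 4 sphingolipid activator proteins, 5.88 to 18.8%. The groups of genes did not grow in the same proportion. Glycan-degrading hydrolases took 0.228 ± 0.0198% of reads in DMSO, 0.195 ± 0.0128% with EPZ5676, 0.237 ± 0.0222% with MI-2-2 and 0.379 ± 0.0257% under iBET. Cathepsins and other proteases took 0.269 ± 0.0275% in DMSO, 0.418 ± 0.119% with EPZ5676, 0.528 ± 0.174% with MI-2-2 and 0.536 ± 0.0305% under iBET. Fewer cells of a type and less RNA per cell cannot be told apart in these bulk samples.

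**Figure D1:**
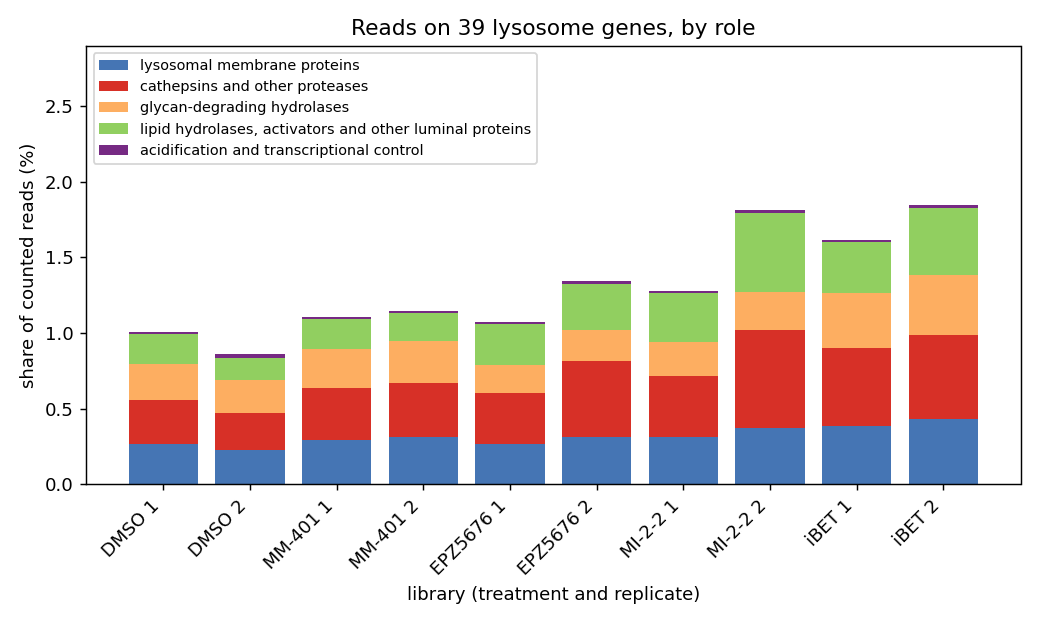
Share of counted reads (%, vertical axis) on the 39 lysosome genes in each of the 10 libraries (horizontal axis), stacked by role. The totals run from 0.860% in DMSO replicate 2 to 1.85% in iBET replicate 2, and the glycan-degrading part is largest in the 2 iBET libraries.

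Against DMSO, lysosome genes rose with 3 of the 4 inhibitors, and few fell. With EPZ5676, 14 of the 39 rose (35.9%) and 2 fell, where 18.7% of the 12971 genes tested rose and 19.4% fell (edgeR's quasi-likelihood test, Benjamini-Hochberg adjusted p under 0.05). With MI-2-2, 19 rose (48.7%) and 2 fell, against 20.2% and 21.2% of all genes. With iBET, 12 rose (30.8%) and 0 fell, against 6.38% and 7.54%. The median log2 fold change of the 39 was 0.33 with EPZ5676, 0.59 with MI-2-2 and 0.72 under iBET, whereas that of all genes lay between -0.06 and -0.04. Without DMSO replicate 2, 10 rose and 3 fell with EPZ5676 (18.9% and 16.6% of all genes), 16 rose and 4 fell with MI-2-2 (20.4% and 17.2%), and 12 rose and 0 fell with iBET (9.76% and 11.9%). These 3 comparisons share the DMSO libraries, so their counts are not independent of each other. The study's methods call the 2 samples of a group biological without saying whether they came from separate cultures. By Xist and the Y-linked reads, the 2 DMSO libraries came from cells of different sex. The p-values measure only the spread between the libraries of this series.

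The iBET and EPZ5676 counts depended on single libraries. Without iBET replicate 1 or 2, 4 and 1 genes were called higher with iBET (0.77% and 0.388% of all genes), and without EPZ5676 replicate 2, 6 with EPZ5676 (10.4%). In fits of DMSO and 1 inhibitor alone, 6 rose and 1 fell with EPZ5676 (6.45% and 2.89% of all genes) and 5 rose and 0 fell with MI-2-2 (6.12% and 3.01%). With iBET no gene passed there, although in the fit of all libraries 21 had an unadjusted p under 0.05 (against 32.2% of all genes). DESeq2 called 20 higher, beside 9.8% of all genes.

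With MM-401, no lysosome gene passed the threshold in edgeR's fit of all libraries, and neither did any other gene (0.0% of 12971). At an unadjusted p under 0.05, 4 lysosome genes were higher with MM-401 and none lower, beside 11.2% of all genes in either direction. DESeq2 called 1, Atp6v0d2, as higher, beside 1.27% of all genes higher and 1.07% lower. The absence of calls depended on the DMSO pair. Without DMSO replicate 1, genes passed in both directions, lysosome genes among those higher, but the control was then replicate 2 alone. Replicate 2 held Hexa and Grn at 300 and 277 TMM CPM. Replicate 1 held them at 464 and 575, and the MM-401 libraries at 481 to 503 and 615 to 658. The median log2 fold change was 0.10. Both MM-401 libraries lay above both DMSO libraries for 17 of the 39 genes and below them for 4, against 19.5% and 17.8% of all genes tested.

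**Figure D2:**
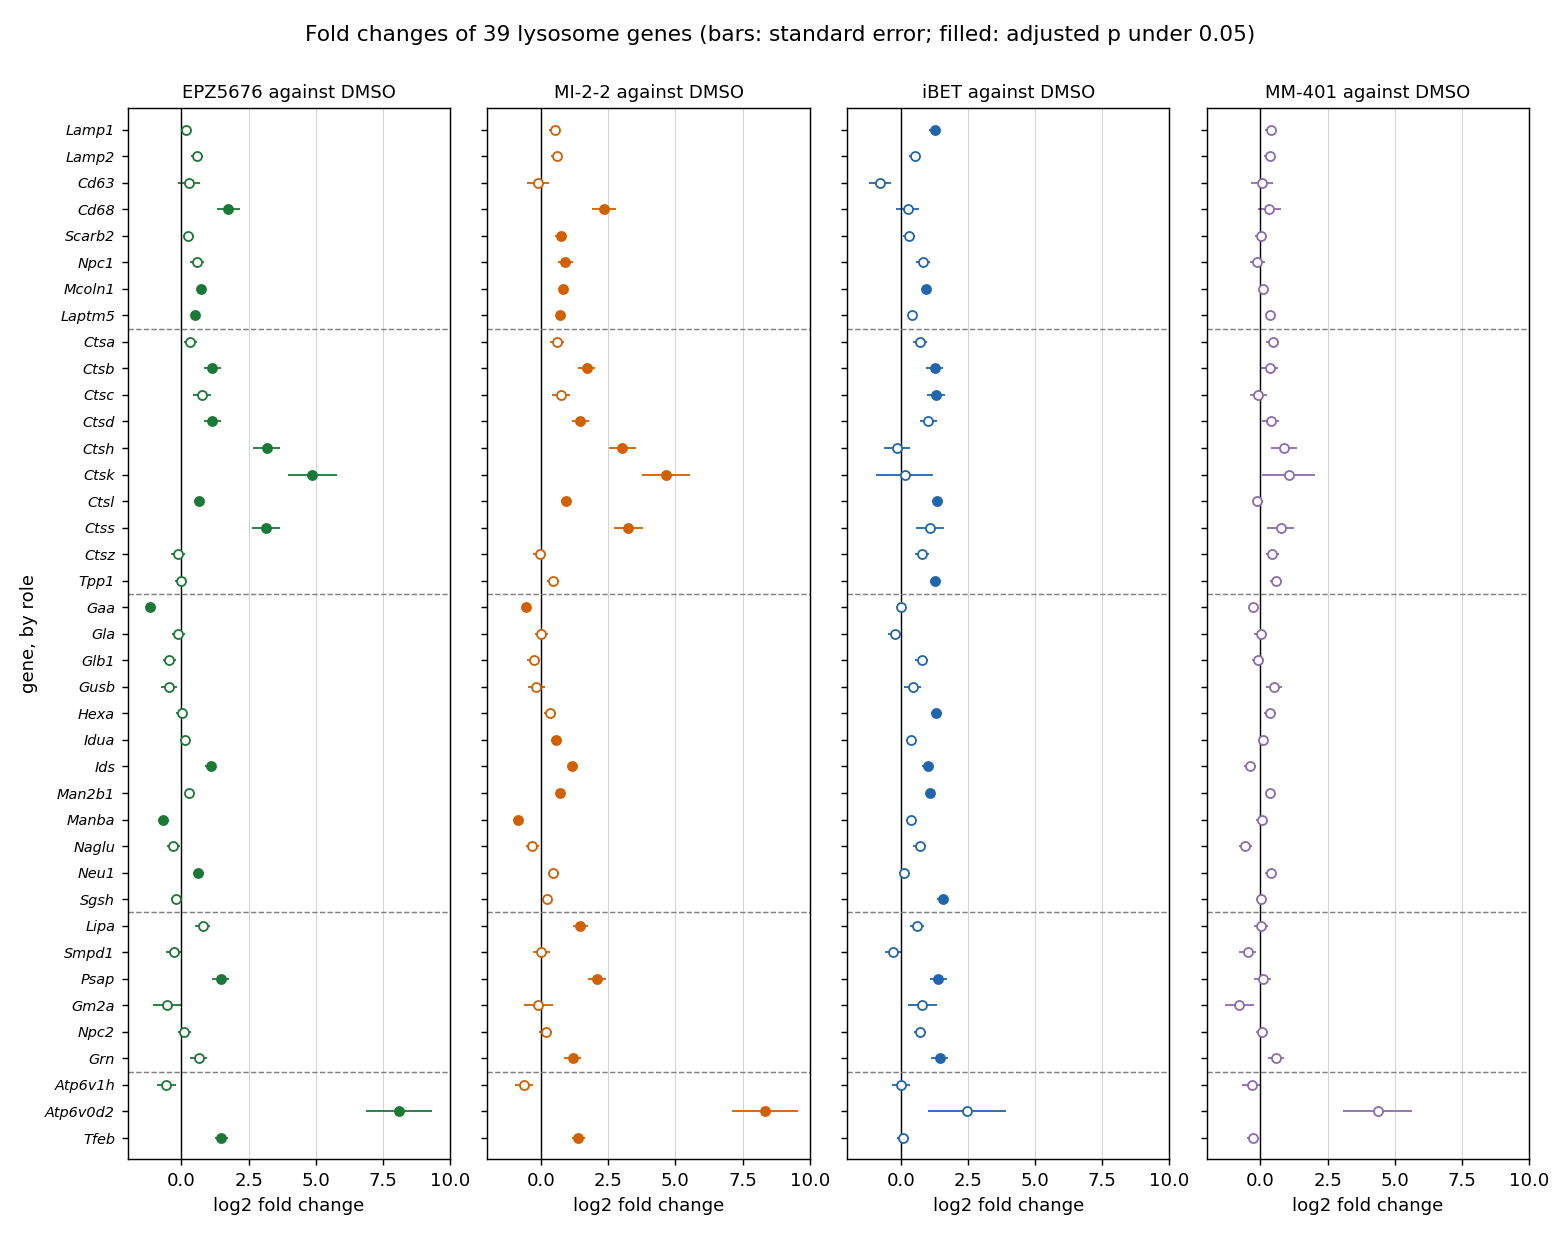
Log2 fold change against DMSO (horizontal axis) with its standard error for each of the 39 genes (vertical axis, dashed lines between the role groups), in 1 panel for each inhibitor. Filled points have an adjusted p under 0.05: 16 with EPZ5676, 21 with MI-2-2, 12 with iBET and 0 with MM-401, and the points farthest right are Atp6v0d2 at 8.10 and 8.35.

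Among the 8 membrane proteins, 3 rose with EPZ5676, 5 with MI-2-2 and 2 under iBET, and 0 fell. The shares of all genes that rose were 18.7%, 20.2% and 6.38%. Cd68, a heavily glycosylated protein of macrophage lysosomes, was at 50.5 and 21.4 TMM CPM in the DMSO libraries, 51.5 and 39.2 with MM-401, 112 and 129 with EPZ5676, 136 and 230 with MI-2-2, and 33.8 and 52.0 with iBET. The 4 EPZ5676 and MI-2-2 libraries lay above the other 6, which overlapped. Cd68 rose 3.35-fold with EPZ5676 (log2 1.74 ± 0.43 SE, adjusted p = 0.0150 by edgeR) and 5.08-fold with MI-2-2 (2.34 ± 0.43, adjusted p = 0.00471). Without DMSO replicate 2 the log2 values were 1.28 (adjusted p = 0.0305) and 1.89 (0.00786), and without DMSO replicate 1 they were 2.50 (0.00193) and 3.10 (0.000777).

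Mcoln1, the calcium channel of the lysosomal membrane, rose with all 3 inhibitors. It was at 39.4 and 34.4 TMM CPM in DMSO, 42.3 and 37.1 with MM-401, 55.2 and 68.1 with EPZ5676, 60.1 and 70.3 with MI-2-2, and 71.7 and 69.0 with iBET. The DMSO and MM-401 libraries did not overlap with the other 6. The fold was 1.67 with EPZ5676 (adjusted p = 0.00757), 1.76 with MI-2-2 (0.00473) and 1.90 with iBET (0.00989, edgeR in each case), and the calls held without DMSO replicate 2.

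Laptm5, a lysosomal protein of blood cells, was at 756 and 636 TMM CPM in DMSO, 856 and 932 with MM-401, 983 and 973 with EPZ5676, 1129 and 1158 with MI-2-2, and 917 and 935 with iBET. All 8 inhibitor libraries lay above both DMSO libraries. The rise passed with EPZ5676 (1.41-fold, adjusted p = 0.0242) and MI-2-2 (1.64-fold, 0.00526), both also without DMSO replicate 2. Scarb2, the receptor that carries glucocerebrosidase to the lysosome, was at 49.7 and 48.3 TMM CPM in DMSO, 43.9 and 55.7 with MM-401, 51.6 and 65.6 with EPZ5676, 67.5 and 95.0 with MI-2-2, and 53.5 and 67.6 with iBET. Only the MI-2-2 rise passed (1.66-fold, adjusted p = 0.0282), and it was lost without DMSO replicate 2 (0.0583) or MI-2-2 replicate 2.

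The cholesterol exporter Npc1 rose 1.88-fold with MI-2-2 (adjusted p = 0.0282, and 0.0514 without DMSO replicate 2). Lamp1, the most common glycoprotein of the lysosomal membrane, rose 2.41-fold with iBET (log2 1.27 ± 0.21, adjusted p = 0.00980, and 0.0154 without DMSO replicate 2). Its 2 iBET libraries, at 1880 and 2142 TMM CPM, lay above the other 8, which ran from 778 to 1354. Lamp2 and the tetraspanin Cd63 passed in no comparison with DMSO. For Cd63 replicate 2 was the higher library in each group, from 107 against 83.9 TMM CPM with iBET to 212 against 112 in DMSO. When any 1 of the 10 libraries was left out, the MI-2-2 calls of Cd68, Mcoln1 and Laptm5 held. The EPZ5676 calls of Cd68, Mcoln1 and Laptm5 were lost without EPZ5676 replicate 2, that of Laptm5 also without replicate 1, and the iBET calls of Lamp1 and Mcoln1 without either iBET library, with adjusted p of up to 0.0785 and 0.0747. The MI-2-2 call of Npc1 was lost in 5 of the 10 fits (up to 0.190).

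**Figure D3:**
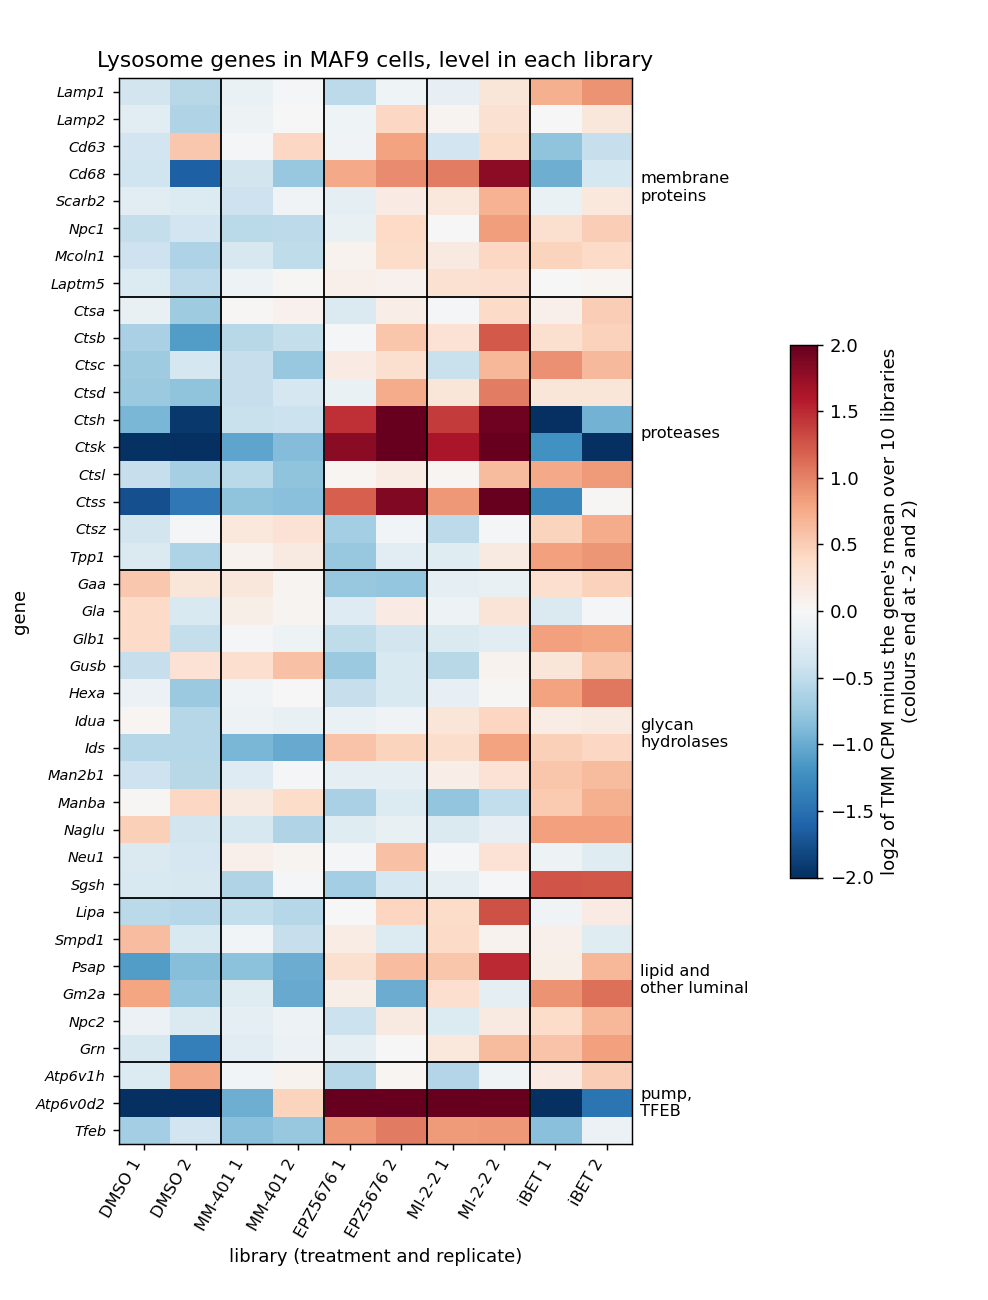
Level of each lysosome gene (rows, by role) in each library (columns), as log2 TMM CPM minus the mean of that gene over the 10 libraries, with colours ending at -2 and 2. Ctsh, Ctsk, Ctss, Cd68, Atp6v0d2 and Tfeb are red in the 4 EPZ5676 and MI-2-2 columns alone or nearly so, whereas Sgsh, Hexa, Glb1 and Lamp1 are most red in the 2 iBET columns.

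The cathepsins held the largest rises among the enzymes, and they split by inhibitor. With EPZ5676 and with MI-2-2, 6 of the 10 proteases rose, with iBET 4, and 0 fell. Beside this, 18.7%, 20.2% and 6.38% of all genes rose with EPZ5676, MI-2-2 and iBET. Ctsk, a collagen-degrading cysteine protease known from osteoclasts, was at 0.156 and 0.144 TMM CPM in DMSO, 0.296 and 0.336 with MM-401, 2.13 and 6.97 with EPZ5676, 1.91 and 5.88 with MI-2-2, and 0.265 and 0.0765 with iBET. The 4 EPZ5676 and MI-2-2 libraries lay far above the other 6. With 192 reads in EPZ5676, 205 in MI-2-2 and 7 in DMSO, the ratio was 30.5 (95% interval 14.5 to 76.9, counting error only) and 27.0 (12.9 to 68.1). The adjusted p by edgeR was 0.00504 and 0.00549, and 0.0200 and 0.0216 without DMSO replicate 2. The fitted log2 fold change of 4.87 with EPZ5676 was 5.49 without EPZ5676 replicate 1 and 3.79 without replicate 2, and that of 4.65 with MI-2-2 was 5.25 without MI-2-2 replicate 1 and 3.62 without replicate 2. Ctsk therefore remained among the rarest of the 39 transcripts also where it rose.

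Ctsh, a cysteine protease that trims proteins from their amino end, was at 9.23 and 4.55 TMM CPM in DMSO, 12.8 and 12.9 with MM-401, 47.7 and 76.7 with EPZ5676, 45.9 and 66.8 with MI-2-2, and 3.58 and 9.03 with iBET. It rose 8.98-fold with EPZ5676 (log2 3.17 ± 0.51, adjusted p = 0.00283) and 8.15-fold with MI-2-2 (3.03 ± 0.50, adjusted p = 0.00308). Without DMSO replicate 2 these were 2.77 and 2.64 on the log2 scale (adjusted p = 0.00763 and 0.00854), and without replicate 1 they were 3.77 and 3.63. The iBET libraries fell in the range of DMSO or below it.

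Ctss, which processes the invariant chain of MHC class II, was at 17.9 and 22.6 TMM CPM in DMSO, 34.6 and 33.9 with MM-401, 140 and 220 with EPZ5676, 111 and 271 with MI-2-2, and 24.9 and 61.5 with iBET. All 8 inhibitor libraries were above both DMSO libraries, but only those of EPZ5676 and MI-2-2 passed, at 8.86-fold (log2 3.15 ± 0.54, adjusted p = 0.00368) and 9.42-fold (3.24 ± 0.54, adjusted p = 0.00310). With iBET the log2 fold change was 1.09 ± 0.51 (adjusted p = 0.181). Without DMSO replicate 2 the first 2 were 3.34 (0.0113) and 3.44 (0.00981), and without MI-2-2 replicate 2 the second was 2.46 (0.0186). The calls of Ctsh, Ctsk and Ctss with EPZ5676 and with MI-2-2 held when any 1 of the 10 libraries was left out.

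Ctsb, a broad cysteine protease, was called with all 3 inhibitors. It was at 397 and 286 TMM CPM in DMSO, 423 and 446 with MM-401, 604 and 913 with EPZ5676, 758 and 1451 with MI-2-2, and 780 and 854 with iBET. The 6 libraries of these inhibitors lay above the DMSO and MM-401 libraries. Ctsb rose 2.22-fold with EPZ5676 (adjusted p = 0.0265), 3.23-fold with MI-2-2 (0.00581) and 2.39-fold with iBET (0.0425). Without DMSO replicate 2 the adjusted p by edgeR was 0.0849, 0.0200 and 0.0860, so that the MI-2-2 call alone held.

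Ctsl, a cysteine protease with endopeptidase activity, was at 61.2 and 53.2 TMM CPM in DMSO, 57.6 and 48.4 with MM-401, 86.7 and 92.9 with EPZ5676, 86.8 and 130 with MI-2-2, and 142 and 152 with iBET. The iBET libraries were the highest and the DMSO and MM-401 libraries the lowest. It rose 1.57-fold with EPZ5676 (adjusted p = 0.0316), 1.90-fold with MI-2-2 (0.00764) and 2.57-fold with iBET (0.00720), and only the EPZ5676 call was lost without DMSO replicate 2 (0.0855). Ctsd rose 2.22-fold with EPZ5676 (adjusted p = 0.0254, and 0.0604 without DMSO replicate 2) and 2.75-fold with MI-2-2 (0.00935, and 0.0266).

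Ctsc, which activates the serine proteases of granules, passed by edgeR with iBET alone (2.49-fold, adjusted p = 0.0373), and so did Tpp1, a tripeptidyl peptidase (2.45-fold, 0.0114). Ctsc was at 63.2 and 80.8 TMM CPM in DMSO, 75.4 and 61.3 with MM-401, 115 and 129 with EPZ5676, 75.7 and 164 with MI-2-2, and 196 and 163 with iBET. DESeq2 called Ctsc with EPZ5676 as well. Tpp1 was at 278 and 221 TMM CPM in DMSO and at 596 and 625 with iBET, with all other libraries at 385 or below. Ctsa and Ctsz passed with no inhibitor. The EPZ5676 calls of Ctsb, Ctsd and Ctsl were also lost without EPZ5676 replicate 2 (adjusted p of up to 0.161), the MI-2-2 call of Ctsd without MI-2-2 replicate 2, and the iBET calls of Ctsb, Ctsc, Ctsl and Tpp1 without iBET replicate 2 (up to 0.177). Those of Ctsb and Ctsc were lost in 7 of the 10 fits.

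**Figure D4:**
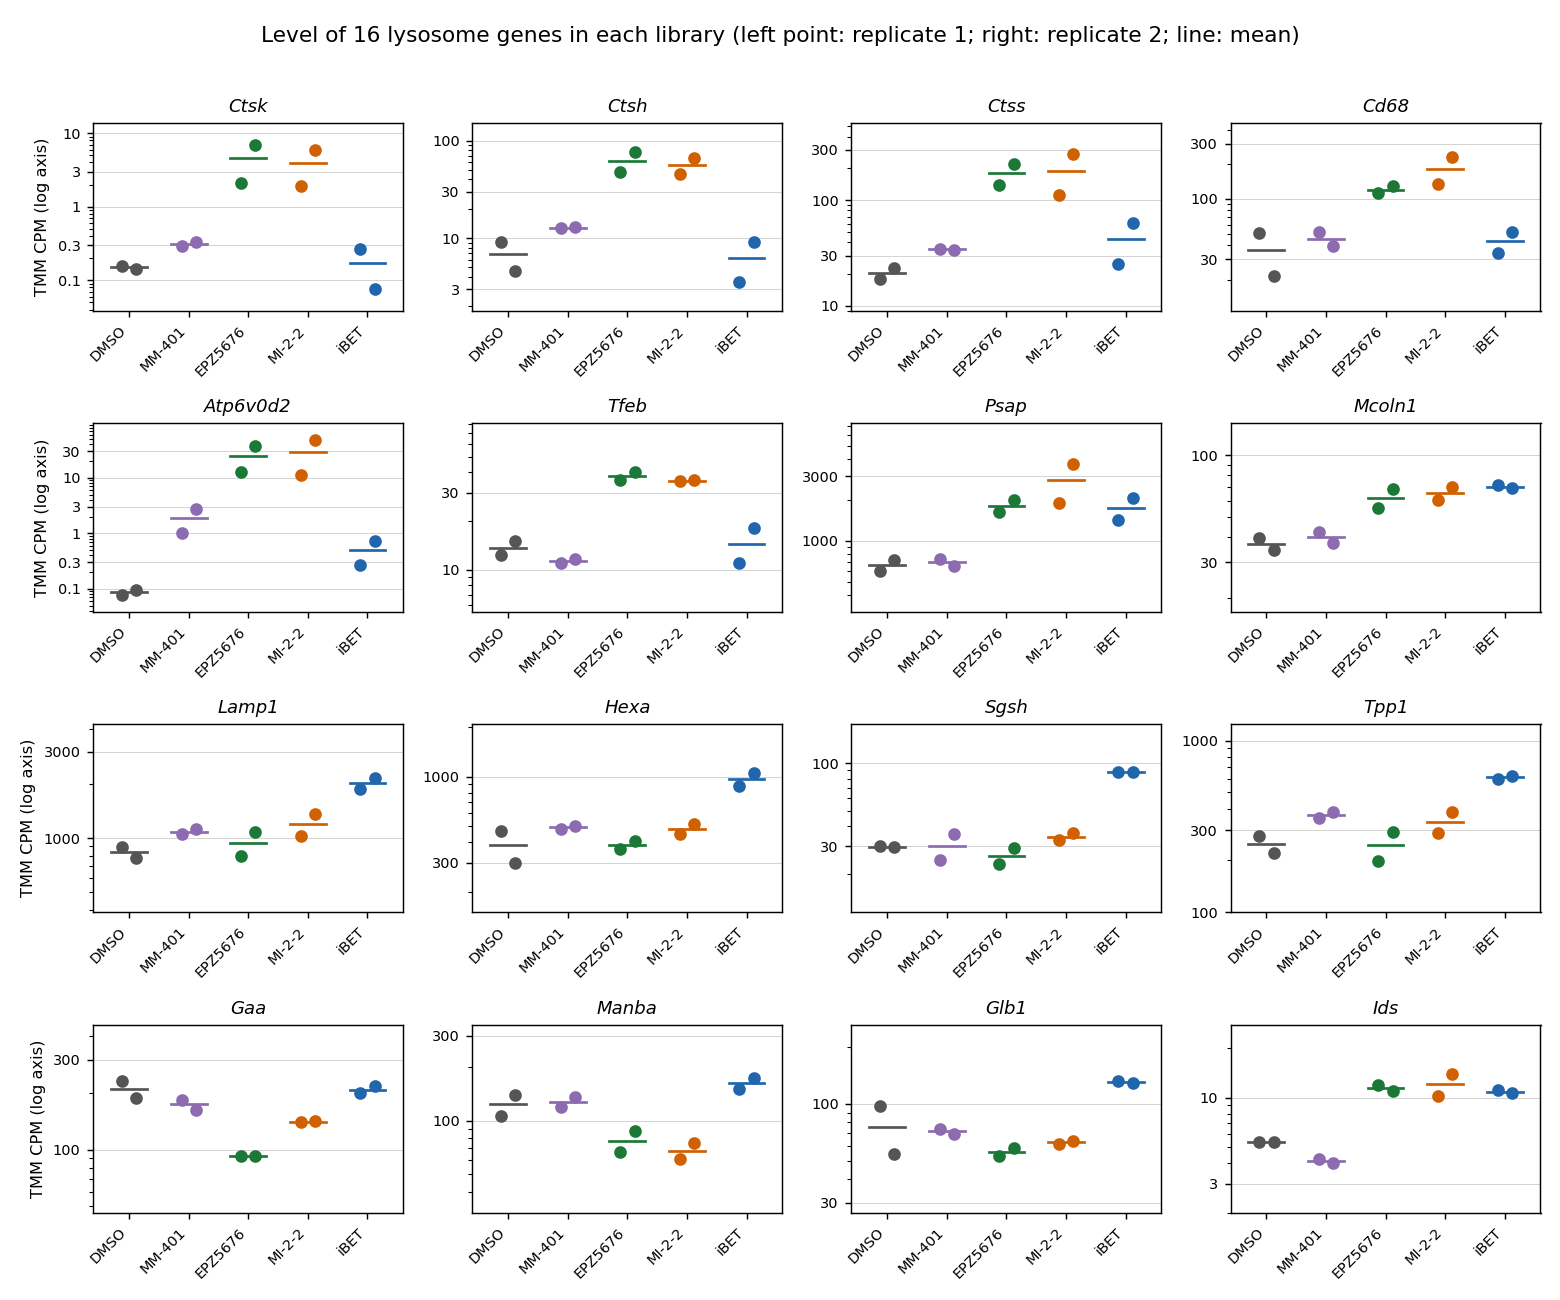
TMM CPM (vertical axis, log scale) of 16 lysosome genes, chosen after their values were seen, in each of the 10 libraries, with replicate 1 on the left, replicate 2 on the right and a line at the mean of the group. Ctsk runs from 0.0765 to 6.97 and is highest with EPZ5676 and MI-2-2, Sgsh from 23.1 to 88.3 and is highest with iBET, and Gaa from 92.6 to 230 and is lowest with EPZ5676.

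Among the 12 glycan-degrading hydrolases, calls went both ways. With EPZ5676, 2 rose and 2 fell, with MI-2-2, 3 rose and 2 fell, beside 18.7% and 19.4%, and 20.2% and 21.2%, of all genes. With iBET, 4 rose, beside 6.38%. Gaa, the glucosidase that degrades glycogen in lysosomes, was at 230 and 187 TMM CPM in DMSO, 184 and 163 with MM-401, 92.9 and 92.6 with EPZ5676, 139 and 142 with MI-2-2, and 199 and 217 with iBET. The EPZ5676 libraries were the lowest, those of MI-2-2 came next, and neither overlapped with any other group. Gaa was 2.25-fold lower with EPZ5676 (log2 -1.17 ± 0.13, adjusted p = 0.000868) and 1.48-fold lower with MI-2-2 (-0.57 ± 0.13, adjusted p = 0.0106), and both held without DMSO replicate 2 (adjusted p by edgeR of 0.000539 and 0.00434). The MI-2-2 call was lost without either MI-2-2 library (up to 0.061).

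Manba, which removes beta-linked mannose, was at 107 and 140 TMM CPM in DMSO, 119 and 136 with MM-401, 67.2 and 87.6 with EPZ5676, 60.9 and 75.3 with MI-2-2, and 151 and 174 with iBET. The 4 EPZ5676 and MI-2-2 libraries were below the other 6. It was 1.60-fold lower with EPZ5676 (adjusted p = 0.0278) and 1.81-fold lower with MI-2-2 (0.0102), and without DMSO replicate 2 the first call was lost (0.106) and the second held (0.0372). The first was lost without EPZ5676 replicate 1 and the second without MI-2-2 replicate 1 as well.

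Ids, a sulfatase of heparan and dermatan sulfate, was at 5.37 and 5.37 TMM CPM in DMSO, 4.23 and 3.99 with MM-401, 11.9 and 10.9 with EPZ5676, 10.2 and 13.9 with MI-2-2, and 11.1 and 10.7 with iBET. The 6 libraries of the last 3 inhibitors lay about equally far above DMSO. Ids rose 2.13-fold with EPZ5676 (adjusted p = 0.00634), 2.25-fold with MI-2-2 (0.00442) and 2.03-fold with iBET (0.0210), and the calls held without DMSO replicate 2. The first 2 held without any 1 of the 10 libraries. Ids, Lamp2 and Gla are X-linked, and only Gla differed by more than 1.5-fold between the DMSO libraries (78.3 and 48.5 TMM CPM).

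Man2b1, which removes alpha-linked mannose, was at 522 and 473 TMM CPM in DMSO, 585 and 685 with MM-401, 611 and 608 with EPZ5676, 767 and 853 with MI-2-2, and 1027 and 1083 with iBET. All 8 inhibitor libraries lay above DMSO, the iBET libraries highest. It rose 1.63-fold with MI-2-2 (adjusted p = 0.00588) and 2.12-fold with iBET (0.00500), and had a log2 fold change of 0.29 ± 0.14 with EPZ5676 (0.127). Sgsh, which removes sulfate from heparan sulfate, was at 30.1 and 29.7 TMM CPM in DMSO, 24.5 and 36.1 with MM-401, 23.1 and 29.1 with EPZ5676, 32.6 and 36.4 with MI-2-2, and 88.3 and 87.7 with iBET. The iBET libraries stood alone, and all others lay between 23.1 and 36.4. Sgsh rose 2.94-fold with iBET (log2 1.56 ± 0.20, adjusted p = 0.00500, and 0.00767 without DMSO replicate 2), the 1 iBET call that held without any 1 of the 10 libraries.

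Hexa, the alpha subunit of beta-hexosaminidase, rose 2.51-fold with iBET (log2 1.33 ± 0.21, adjusted p = 0.00936, and 0.00660 without DMSO replicate 2). It was at 464 and 300 TMM CPM in DMSO and at 876 and 1044 with iBET, and no other library exceeded 512. Neu1, a sialidase, rose with EPZ5676 (1.53-fold, adjusted p = 0.0457) and Idua, an iduronidase, with MI-2-2 (1.48-fold, 0.0412), and each call was lost in 9 of the 10 fits that left out a library. The beta-galactosidase Glb1 and Naglu, a glucosaminidase of heparan sulfate, were above both DMSO libraries in both iBET libraries without passing (adjusted p = 0.0639 and 0.0863), and DMSO replicate 1 held 1.81 and 1.79 times the level of replicate 2. Gla and Gusb passed with no inhibitor. The iBET calls of Hexa and Man2b1 were lost without iBET replicate 2 and that of Ids without either iBET library (adjusted p of up to 0.118).

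Of the 6 lipid hydrolases, activators and other luminal proteins, 1 rose with EPZ5676, 3 with MI-2-2 and 2 under iBET. The shares of all genes that rose were 18.7%, 20.2% and 6.38%. Psap was at 601 and 719 TMM CPM in DMSO, 738 and 656 with MM-401, 1628 and 1994 with EPZ5676, 1905 and 3675 with MI-2-2, and 1415 and 2065 with iBET. The DMSO and MM-401 libraries overlapped and lay below the other 6. Psap rose 2.74-fold with EPZ5676 (log2 1.46 ± 0.32, adjusted p = 0.0105), 4.23-fold with MI-2-2 (2.08 ± 0.33, adjusted p = 0.00261) and 2.64-fold with iBET (1.40 ± 0.32, adjusted p = 0.0295). Without DMSO replicate 2 the adjusted p by edgeR was 0.0193, 0.00609 and 0.0344.

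Lipa, the acid lipase of cholesteryl esters and triglycerides, was at 81.0 and 78.6 TMM CPM in DMSO, 83.2 and 79.3 with MM-401, 118 and 158 with EPZ5676, 152 and 285 with MI-2-2, and 112 and 132 with iBET. The DMSO and MM-401 libraries were nearly equal, and the other 6 lay above them. Lipa rose 2.74-fold with MI-2-2 (adjusted p = 0.00530, and 0.0158 without DMSO replicate 2). With EPZ5676 the log2 fold change of 0.79 ± 0.27 missed the threshold (adjusted p = 0.0530), and DESeq2 called it (0.0139). Grn, the lysosomal growth factor progranulin, was at 575 and 277 TMM CPM in DMSO, 615 and 658 with MM-401, 622 and 709 with EPZ5676, 827 and 1108 with MI-2-2, and 1066 and 1264 with iBET. DMSO replicate 2 was the lowest by far. Grn rose 2.27-fold with MI-2-2 (adjusted p = 0.0196) and 2.73-fold with iBET (0.0249), and without DMSO replicate 2 the log2 values went from 1.18 to 0.78 (0.0204) and from 1.45 to 1.02 (0.0157). Without DMSO replicate 1 they were 1.81 and 2.08.

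Gm2a, the activator of ganglioside degradation, was at 166 and 55.7 TMM CPM in DMSO, 81.4 and 48.0 with MM-401, 105 and 48.3 with EPZ5676, 121 and 85.0 with MI-2-2, and 179 and 206 with iBET. The DMSO libraries, 2.98-fold apart, lay below the iBET libraries, and MM-401 replicate 2 and EPZ5676 replicate 2 were the lowest. Gm2a passed with no inhibitor, like Npc2 and Smpd1. The MI-2-2 calls of Psap and Lipa held without any 1 of the 10 libraries. The EPZ5676 call of Psap was lost without EPZ5676 replicate 2 (adjusted p = 0.060), the MI-2-2 call of Grn without MI-2-2 replicate 2 (0.112), and the iBET calls of both without either iBET or either MM-401 library, that of Psap also without DMSO replicate 1 (up to 0.169).

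Of the 3 genes of acidification and transcriptional control, 2 rose with EPZ5676 and with MI-2-2, and 0 under iBET. Beside this, 18.7%, 20.2% and 6.38% of all genes rose with EPZ5676, MI-2-2 and iBET. Atp6v0d2, a subunit of the proton pump found in macrophages and osteoclasts, was at 0.0779 and 0.0959 TMM CPM in DMSO, 1.01 and 2.73 with MM-401, 12.5 and 37.8 with EPZ5676, 11.4 and 48.0 with MI-2-2, and 0.265 and 0.727 with iBET. The levels of all 4 inhibitors lay above DMSO, in the order iBET, MM-401, then EPZ5676 and MI-2-2, which overlapped. DMSO held 4 reads in all, EPZ5676 1060 and MI-2-2 1579, a ratio of 295 (95% interval 115 to 1083, counting error only) and 364 (142 to 1338). The adjusted p by edgeR was 0.00231 and 0.00195, and 0.0110 and 0.00929 without DMSO replicate 2, and both calls held without any 1 of the 10 libraries. The fitted log2 fold change of 8.10 with EPZ5676 was 8.70 without EPZ5676 replicate 1 and 7.10 without replicate 2, and that of 8.35 with MI-2-2 was 9.04 without MI-2-2 replicate 1 and 6.97 without replicate 2. With MM-401, 89 reads gave a ratio of 21.8 (8.23 to 81.8) with an adjusted p of 0.322 by edgeR and 0.00456 by DESeq2, and with iBET, 25 reads gave a ratio of 5.97 (2.06 to 23.6) with an adjusted p of 0.276.

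Tfeb was at 12.3 and 15.0 TMM CPM in DMSO, 11.0 and 11.6 with MM-401, 35.9 and 40.4 with EPZ5676, 35.4 and 35.8 with MI-2-2, and 11.0 and 18.0 with iBET. The 4 EPZ5676 and MI-2-2 libraries lay above the other 6, and the iBET libraries spanned DMSO. Tfeb rose 2.80-fold with EPZ5676 (log2 1.48 ± 0.24, adjusted p = 0.00282) and 2.61-fold with MI-2-2 (1.38 ± 0.24, adjusted p = 0.00339), also without DMSO replicate 2 (1.66 and 1.57, adjusted p = 0.00424 and 0.00479) and without any other 1 of the libraries. Atp6v1h, another pump subunit, was at 101 and 206 TMM CPM in DMSO, 117 and 128 with MM-401, 82.5 and 125 with EPZ5676, 81.5 and 117 with MI-2-2, and 137 and 172 with iBET. DMSO replicate 2 was the highest library, and Atp6v1h passed with no inhibitor.

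The promoters of the lysosome genes were searched for the motif to which TFEB is known to bind, since Tfeb itself is among the genes that rose. RefSeq windows of GRCm38.p6, from 250 bases before to 50 after a transcription start, were found for 34 of the 39 genes (38 windows). GTCACGTG, read on both strands, was in 8 of 38 windows and in 2.25% of all 32851, and its core CACGTG, which the longer motif contains, in 10 of 38 and in 7.15%. The 8 genes with GTCACGTG were Ctsa, Ctsd, Gla, Glb1, Lamp1, Mcoln1, Naglu and Sgsh. Of these, 2 rose with EPZ5676, 2 with MI-2-2 and 3 under iBET, against 9, 13 and 8 of the 26 genes whose windows lacked it. The shares of all genes that rose were 18.7%, 20.2% and 6.38%. A match is a string of letters in this window and not a shown binding site. Many lysosomal genes were already known to carry the CLEAR element, so the comparison with all windows is no test. The match nearest to the start of each of the 3 genes that rose with iBET is shown with its surroundings, 30 bases read 5′ to 3′ on the gene's strand, with the motif in capitals. Lamp1 lies at chr8:13159122-13159151 on the plus strand, Mcoln1 at chr8:3500463-3500492 on the plus strand and Sgsh at chr11:119355521-119355550 on the minus strand. For comparison, Glb1 (chr9:114401017-114401046, plus), Naglu (chr11:101070008-101070037, plus) and Ctsd (chr7:142387907-142387936, minus) follow.
Lamp1: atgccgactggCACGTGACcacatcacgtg
Mcoln1: ggcgccccgctCACGTGACcgcggcgcatg
Sgsh: ggcctgccgtgCACGTGACcgtggggagcg
Glb1: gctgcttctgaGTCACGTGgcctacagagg
Naglu: ccaaccttcagGTCACGTGgcccgaggtcg
Ctsd: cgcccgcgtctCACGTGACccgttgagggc

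The difference between inhibitors was tested directly, with no DMSO library in the contrast. EPZ5676 and iBET differed in 18 of the 39 genes: 6 were higher with EPZ5676 (15.4%, against 19.1% of all genes) and 12 were lower (30.8%, against 18.5%). The 6 were Ctsk (log2 4.73), Atp6v0d2 (5.62), Ctsh (3.30), Ctss (2.05), Cd68 (1.49) and Tfeb (1.39). The 12 were Sgsh, Hexa, Tpp1, Glb1, Gaa, Lamp1, Manba, Naglu, Ctsz, Gusb, Man2b1 and Ctsl, with log2 fold changes from -1.75 (Sgsh) to -0.71 (Ctsl), and 8 of them are glycan-degrading hydrolases. Of the 12 hydrolases of that group, 8 were therefore lower with EPZ5676 than with iBET and 0 higher, with a median of -0.97, whereas the 10 proteases were split into 3 higher and 3 lower, with a median of -0.24.

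MI-2-2 and iBET differed in 16 genes, 7 higher (17.9%, against 19.7% of all genes) and 9 lower (23.1%, against 19.1%) with MI-2-2. The 7 were Ctsk (4.50), Atp6v0d2 (5.87), Ctsh (3.15), Ctss (2.14), Cd68 (2.09), Tfeb (1.29) and Lipa (0.84). The 9 were Sgsh, Manba, Glb1, Naglu, Hexa, Tpp1, Ctsz, Lamp1 and Gaa, with log2 fold changes from -1.35 (Sgsh) to -0.57 (Gaa). The 2 comparisons share the iBET libraries. In the comparison of EPZ5676 with iBET, 11 of the 18 calls held without any 1 of the 10 libraries, and in that of MI-2-2 with iBET 5 of 16. Without iBET replicate 1 or 2 or MI-2-2 replicate 1, the 9 genes lower with MI-2-2 became 4, 2 and 2 (9.74%, 6.56% and 8.02% of all genes), and without iBET replicate 1 the 7 higher became 4 (11.4%). The Ctsk calls of both comparisons were lost without iBET replicate 2, and the Ctss calls without iBET replicate 1 and without replicate 2 of the other inhibitor.

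Between EPZ5676 and MI-2-2, no lysosome gene passed by edgeR, and of all genes 0.00771% passed in each direction. At an unadjusted p under 0.05, 4 of the 39 were lower with EPZ5676 (Gaa, Idua, Man2b1 and Lipa) and 0 higher, against 7.22% of all genes in either direction, and DESeq2 called Gaa. Gaa had a log2 fold change of -0.60 ± 0.13 (adjusted p = 0.267), and passed without DMSO replicate 1 or without replicate 2 (0.0484 and 0.0453). Over the other 38 genes the log2 fold change lay between -0.66 and 0.40. The median was -0.25, and it was 0.05 without MI-2-2 replicate 2.

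MM-401 had no called gene against DMSO in edgeR's fit of all libraries. Against MM-401, 10 lysosome genes were higher with EPZ5676 and 3 lower, where 16.7% and 16.6% of all genes were. With MI-2-2, 15 were higher and 1 lower, against 18.0% and 17.6%, and with iBET, 10 were higher and 0 lower, against 5.48% and 5.96%. Among the called genes, the largest values were those of Atp6v0d2 (log2 3.74 with EPZ5676 and 3.99 with MI-2-2), Ctsk (3.83 and 3.60) and, under iBET, Sgsh (1.54). Tfeb was higher than with MM-401 by 1.76 with EPZ5676 and by 1.66 with MI-2-2 on the log2 scale, and Ids by 1.47 and 1.55, and these 4 calls held without any 1 of the 10 libraries. The counts depended on single libraries. Without MM-401 replicate 1 or 2, the genes higher were 2 and 2 with EPZ5676, 6 and 4 with MI-2-2, and 2 and 1 with iBET. Of all genes, 5.72% and 5.68%, 6.89% and 6.42%, and 0.605% and 0.246% were then higher. Without EPZ5676 replicate 2 they were 2 (8.13% of all genes), without MI-2-2 replicate 2 they were 5 (8.8%), and without iBET replicate 1 or 2 they were 2 each time (0.822% and 0.665%). The calls of Ctsk and Atp6v0d2 were lost without replicate 2 of EPZ5676 or of MI-2-2, where their log2 values lay between 2.58 and 2.74. All of them were also lost without MM-401 replicate 1. Without MM-401 replicate 2 all but that of Atp6v0d2 with MI-2-2 were lost.

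Per length, the order of the levels changed with treatment. Levels between genes are compared as TMM CPM per kb of exon in the GENCODE M21 annotation, group means without a test. In DMSO, Ctsd was highest at 415, followed by Ctsz (335), Lamp1 (312) and Psap (241), and Ctsk (0.0990) and Atp6v0d2 (0.0320) were lowest. With MI-2-2, Ctsd was at 1143 and Psap at 1017, and with iBET Ctsd was at 842, Lamp1 at 752, Psap at 634 and Ctsz at 585. Ctss, at 14.9 in DMSO, was at 132 with EPZ5676 and 141 with MI-2-2, beside Ctsb at 125 and 183. Ctsk at 3.01 and 2.57 still lay far below Ctss and Ctsb in those groups.

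Beyond the 39 genes, 100 further genes of lysosome function were listed, of which 95 were tested. With EPZ5676, 35 of them rose and 7 fell, with MI-2-2, 39 and 4, with iBET, 21 and 2, and with MM-401, 0 and 0. Of all genes, 18.7% rose and 19.4% fell with EPZ5676, 20.2% and 21.2% with MI-2-2, 6.38% and 7.54% with iBET, and 0.0% with MM-401, and the lists below are to be read beside these shares. The other subunits of the proton pump rose in 9 of 15 cases with EPZ5676, 7 with MI-2-2 and 4 under iBET, and 0 fell, with Atp6v0a1 at 3.13-fold, 2.93-fold and 2.21-fold (adjusted p by edgeR of 0.00331, 0.00388 and 0.0314), the last not passing without DMSO replicate 2 (0.0586). Atp6v1d rose 2.43-fold with EPZ5676 and 2.02-fold with MI-2-2, the second call being lost without DMSO replicate 1, DMSO replicate 2 (adjusted p = 0.0605) or MI-2-2 replicate 2. Other hydrolases rose in 12, 13 and 7 of 26 cases and fell in 2, 1 and 2. The asparaginyl protease Lgmn was at 0.506 and 1.15 TMM CPM in DMSO, 2.41 and 3.28 with MM-401, 16.8 and 37.9 with EPZ5676, 17.5 and 57.1 with MI-2-2, and 1.37 and 1.72 with iBET. Its rise passed with EPZ5676 (log2 5.06 ± 0.74, adjusted p = 0.00203) and MI-2-2 (5.51 ± 0.75, adjusted p = 0.00148), with 5.76 and 6.22 without DMSO replicate 2 and 4.36 and 4.42 without replicate 2 of the inhibitor, and the 4 libraries of these inhibitors lay above the other 6. The aspartic protease Ctse rose with EPZ5676 (log2 2.86) and MI-2-2 (4.03) and fell with iBET (-2.04, adjusted p = 0.0359, and 0.0717 without DMSO replicate 2).

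Among other membrane proteins and transporters, 6 of 19 rose with EPZ5676, 7 with MI-2-2 and 5 under iBET, and 1, 1 and 0 fell. The metal transporter Slc11a1 rose by 3.81 and 4.86 and the membrane protein Cln3 by 1.68 and 1.91 on the log2 scale with EPZ5676 and MI-2-2. Of 16 genes for sorting to the lysosome, 2, 5 and 4 rose and 1, 1 and 0 fell, beside rises of 18.7%, 20.2% and 6.38% of all genes. Gnptab, which starts the mannose 6-phosphate tag, was at 226 and 250 TMM CPM in DMSO, 108 and 91.5 with EPZ5676, 135 and 133 with MI-2-2, and 344 and 317 with iBET. It fell by 1.25 and 0.83 on the log2 scale with EPZ5676 and MI-2-2 (adjusted p = 0.000630 and 0.00191) and was at 0.47 with iBET (0.0402), a call that was lost in 11 alternative fits (adjusted p of 0.0523 to 0.202). The trafficking regulator Lyst rose by 2.42 and 2.57 with EPZ5676 and MI-2-2.

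Of 19 genes of the TFEB family and of mTORC1 control at the lysosome, 6, 7 and 1 rose and 3, 1 and 0 fell. Tfe3 rose with all 3 inhibitors, at 31.9 and 39.8 TMM CPM in DMSO, 35.5 and 35.7 with MM-401, 58.3 and 64.4 with EPZ5676, 71.4 and 79.0 with MI-2-2, and 63.9 and 72.3 with iBET (log2 0.78, 1.07 and 0.93, adjusted p by edgeR of 0.00482, 0.00138 and 0.00829). The DMSO and MM-401 libraries lay below the other 6. Mitf rose with MI-2-2 (log2 1.37 ± 0.27, adjusted p = 0.00576), and with EPZ5676 it was at 0.60 ± 0.27 (0.110, and 0.00595 without DMSO replicate 2). Tfec went the other way. It was at 258 and 257 TMM CPM in DMSO, 404 and 457 with MM-401, 81.9 and 151 with EPZ5676, 161 and 194 with MI-2-2, and 449 and 533 with iBET. It fell by 1.14 on the log2 scale with EPZ5676 (adjusted p = 0.0120), and with iBET it was at 0.93 ± 0.26 (0.0525). The GTPase Rragd and Fnip2, both of the amino acid sensing branch, rose by 3.50 and 2.32 with EPZ5676 and by 2.49 and 2.48 with MI-2-2. Rragd was at 1.21 and 0.0959 TMM CPM in DMSO. Its log2 fold changes were 2.67 and 1.68 without DMSO replicate 2 and 6.23 and 5.23 without replicate 1, and the MI-2-2 call was lost in 10 alternative fits. The Fnip2 calls were lost without replicate 2 of EPZ5676 (1.54) and of MI-2-2 (1.51).

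Markers of myeloid cell types moved with the same inhibitors as Cd68, Ctsh, Ctsk, Ctss, Atp6v0d2 and Tfeb. Of 12 macrophage markers tested, 11 rose with EPZ5676 and with MI-2-2, and 0 rose and 1 fell with iBET. Their summed level was 67.9 to 91.2 TMM CPM in DMSO, 228 to 240 with MM-401, 914 to 1653 with EPZ5676, 887 to 2380 with MI-2-2 and 134 to 154 with iBET. Gpnmb, a glycoprotein of macrophages, was the largest part of that sum in each inhibitor library. Of 11 neutrophil markers, 11 rose with EPZ5676 and with MI-2-2, and 0 rose and 3 fell with iBET. Their sum was 646 to 3555 in DMSO, 4514 to 5918 with MM-401, 49522 to 67880 with EPZ5676, 45053 to 46192 with MI-2-2 and 487 to 1142 with iBET. Of 11 blast and progenitor markers, 7 fell with EPZ5676 and with MI-2-2 and 2 under iBET. Beside these counts, 18.7%, 20.2% and 6.38% of all genes rose with EPZ5676, MI-2-2 and iBET, and 19.4%, 21.2% and 7.54% fell. The part of these cell type markers in the lysosome results was not tested. For iBET, under which Lamp1, Hexa, Sgsh and Tpp1 rose, the macrophage sum was above both DMSO libraries and the neutrophil sum overlapped them. Both sums were far below those with EPZ5676 and MI-2-2. The B cell, T and NK cell, erythroid and stromal lists each held 3 genes without a read in any library, among them Pax5, Cd3e, Hba-a1 and Col1a2. Other genes of these lists had reads, with Cd79b, Cd3d and Col1a1 at up to 7.11, 2.01 and 18.9 TMM CPM. Of the 2, 2 and 3 B cell, T and NK cell and stromal genes tested, 1, 1 and 1 rose with EPZ5676 and 0, 0 and 1 fell. Of 5 megakaryocyte markers, 3 rose with EPZ5676 and with MI-2-2, and of 3 dendritic cell markers 1 and 2.

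Counting could blur some values. In GENCODE M21 the exons of Lamp1, Ctsa, Ctsb, Ctsz, Hexa, Idua, Sgsh, Grn and Atp6v1h overlap another counted gene on the opposite strand, and those of Glb1 overlap Tmppe on the same strand. The sources used here do not say whether counting used strand, so reads in such overlaps cannot be assigned.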

How the data were processed

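The authors deposited raw read counts per gene for 24015 gene symbols in 10 libraries. The submitters' processing notes name TopHat2, Subread, DESeq and mm9. For versions, annotation, strand and reads with several matches: not given in the sources used here. No column belonged to another sample.

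R 4.3.3 and edgeR 4.0.16 were used for the counts (TMM scaling, glmQLFit and glmQLFTest after filterByExpr), in 1 fit of 5 groups with 2 libraries each. After filtering, 12971 genes remained, and Benjamini-Hochberg adjustment ran over all of them, with a threshold of 0.05. The SE is the log2 fold change divided by the square root of F. Intervals of read ratios are exact binomial. DESeq2 1.42.0, other scalings, filters, a replicate block and the omission of each library were alternatives. Before use, scripts were tested on simulated data.

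The genes, their roles and the further lists were chosen with earlier results of these data known. Values in all libraries are given, in each role group, for the 4 genes with the smallest p for EPZ5676 or MI-2-2 against DMSO and for the 3 of all 39 with the smallest p for iBET. The other members were described after their values were seen. Pathway genes named are Tfe3, Mitf, Tfec and the 2 called genes of each list with the largest change for EPZ5676. GENCODE M21 (GRCm38, not mm9) served for exon lengths and RefSeq for promoters, and edgeR ran with limma 3.58.1.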

Additional observations from a re-analysis of the deposited data

How the results depend on the processing

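Of 163 single values of named genes, none changed sign in any alternative. In fits without 1 library, 1342 of their values kept their side of the threshold, 280 lost a call and 8 gained one, and in the other settings 1066, 61 and 13. Total-count scaling moved the median of all genes against DMSO from -0.06 to -0.23 with EPZ5676 and from -0.05 to -0.20 with MI-2-2. Under it the median of the lysosome genes was 0.150 for EPZ5676 against DMSO (11 higher, beside 14.9% of all genes) and 0.071 for MM-401 against DMSO. It was 0.077 for EPZ5676 against MM-401, 0.333 for MI-2-2 against MM-401 and -0.0605, with the other sign, for MI-2-2 against iBET. Lower than with MM-401 were 5 genes with EPZ5676 and 3 with MI-2-2, beside 24.3% and 24.5% of all genes. The read share with MM-401 was 1.09% when computed on TMM library sizes. With the stricter filter the median was 0.077 for MM-401 against DMSO and 0.507 for MI-2-2 against MM-401.

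In fits of only the compared groups, counts moved in both directions. Against DMSO, 6 genes were higher and 1 lower with EPZ5676 (6.45% and 2.89% of all genes) and 5 and 0 with MI-2-2 (6.12% and 3.01%). With iBET 0 passed (0.0% of all genes), and the median for MM-401 was 0.069. Against MM-401, 6 and 3 were lower with EPZ5676 and MI-2-2, beside 22.6% and 26.2% of all genes. With iBET, 21 were higher and 1 lower than with MM-401, beside 17.6% and 17.4% of all genes. The cause was not tested. DESeq2 called 20 genes higher with iBET and 1 with MM-401 against DMSO, beside 9.8% and 1.27% of all genes. It called 1 lower with EPZ5676 than with MI-2-2 (0.686% of all genes), and 16 higher with iBET than with MM-401 (8.71%).

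Libraries share only a replicate number, and labels do not pair them. Deviations of the same number correlated across groups at r of 0.278 to 0.666. With the replicate block, 19 genes were higher and 1 lower with iBET against DMSO, beside 11.6% and 12.2% of all genes. Atp6v0d2 was among them (adjusted p = 0.0161 by edgeR). Lower than with MM-401 were 5, 3 and 2 genes with EPZ5676, MI-2-2 and iBET, beside 21.9%, 23.1% and 9.74% of all genes.

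Without 1 library at a time, the number of genes called changed, both among the lysosome genes and among all genes. The median log2 fold change of the lysosome genes against DMSO ranged over 0.26 to 0.54 for EPZ5676, 0.45 to 0.79 for MI-2-2, 0.61 to 0.94 for iBET, and 0.10 to 0.30 for MM-401. Against MM-401 they were 2 to 14, 1 to 5 and 0.05 to 0.33 for EPZ5676, 4 to 19, 0 to 3 and 0.34 to 0.51 for MI-2-2, and 1 to 15, 0 and 0.35 to 0.68 for iBET. Against iBET they were 4 to 7, 8 to 14 and -0.44 to -0.17 for EPZ5676, and 4 to 8, 2 to 10 and -0.23 to 0.12 for MI-2-2. That last median was below 0 without MI-2-2 replicate 2 (-0.226) and without iBET replicate 1 (-0.0369). For EPZ5676 against MI-2-2 the median was -0.43 to 0.05, the last without MI-2-2 replicate 2 (0.0462).

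With 2 libraries a group and a DMSO pair that differed widely, precision is limited. At 4 and 7 reads in DMSO, the intervals of the Atp6v0d2 and Ctsk ratios cover counting error and not the spread between libraries, which moved some of these folds past an interval.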

Other observations

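The replicates of a group differed in the lysosome genes in a shared direction. With MI-2-2, 37 of the 39 genes were higher in replicate 2 than in replicate 1, where 54.0% of all genes tested were, and the median log2 ratio was 0.42. With EPZ5676, 33 of 39 were higher in replicate 2 (53.6% of all genes, median log2 ratio 0.38), and with iBET 30 of 39 (52.1%, 0.20). With MM-401 the number was 23 of 39 (50.5%, 0.06) and in DMSO 11 of 39 (49.1%, -0.18). The genes are not independent of each other and the pairs are single, so these are values with no test. The summed macrophage markers were also higher in replicate 2 with EPZ5676 (914 and 1653 TMM CPM) and MI-2-2 (887 and 2380), and their part in the split was not tested.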
